A study of Mus musculus with 2 samples.

Results

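Heat shock proteins of the cytosol and mitochondria were measured by scRNA-seq, the counting of mRNA molecules in single cells, in dendritic cells (DC) sorted from spleens of WT mice and of H2-Aa cit/cit mice. The group holds 10 of the 32285 genes in the count table, chosen by symbol with earlier results of these data known: Hspa1a, Hspa1b, Hspa8, Hsp90aa1, Hsp90ab1, Dnaja1, Dnajb1, Hsph1, Hspd1 and Hspe1. All 10 symbols were found once. They are set beside chaperones of the endoplasmic reticulum (ER), which fold secreted and membrane proteins in a separate compartment.

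The cit allele is a chemically induced splice-region mutation of H2-Aa, the gene for the alpha chain of an MHC class II molecule, and H2-Aa cit/cit mice lack surface MHC class II. Both libraries came from naive female mice 4 months old, WT (H2-Aa +/+) or H2-Aa cit/cit, with 3 mice pooled in each, and held CD11c-enriched, sorted live CD45.2+ CD11c+ spleen cells. H2-Aa cit/cit cells are called mutant in what follows. There was 1 library per genotype, and the files do not tie a cell to a mouse. No difference below therefore has a replicate check, no test was run, and each 95% interval covers counting error only. Genotype, pool and library preparation cannot be told apart.

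HSP70 proteins bind exposed hydrophobic stretches of unfolded proteins and release them in cycles driven by ATP, with J proteins delivering the client and HSP110 exchanging the nucleotide. HSP90 acts later on partly folded clients such as kinases and steroid receptors, while HSP60 and its lid HSP10 form a folding chamber in mitochondria. Heat shock factor 1 (HSF1) induces the cytosolic set from inverted GAA repeats when misfolded proteins accumulate there, whereas unfolded protein in the ER acts through other factors, such as ATF6 and XBP1, on ER stress elements.

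The regulatory letters in front of the genes are shown first because these 2 groups are known to answer to different elements. Promoter windows of 300 bases, from 250 before to 50 after each start, were read from RefSeq for 7 of the 10 members (GRCm38.p6). Hspa8, Hsp90aa1 and Hsp90ab1 had no entry. Capitals mark matches to GAANNTTC or TTCNNGAA, which overlap each other and read the same on both strands, in the printed stretches of at most 30 bases.
Hspa1a, chr17:34972243-34972270, minus strand, outside annotated exons: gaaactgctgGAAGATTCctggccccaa
Dnaja1, chr4:40722334-40722361, plus strand, in exons of Dnaja1 and Gm6297: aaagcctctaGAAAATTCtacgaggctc
Hsph1, chr5:149636352-149636379, minus strand, at the edge of a Hsph1 exon: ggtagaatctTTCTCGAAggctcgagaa
Hsph1, chr5:149636287-149636308, minus strand, in a Hsph1 exon: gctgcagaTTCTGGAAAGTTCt
Hspe1, chr1:55088053-55088082, plus strand, in an exon of a Hspd1 transcript: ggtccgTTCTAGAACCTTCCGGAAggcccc

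The Hspa1b window holds the same stretch as Hspa1a, at chr17:34959325-34959352, and the 2 windows have the same base at 296 of 300 positions (98.7%). The first base of the match lies 104 bases before the start in both. The Hspe1 stretch also lies in front of a Hspd1 start, 144 bases away on the other strand, where the annotated genes run away from each other and overlap by 112 bases. A run of 3 alternating copies of GAA and TTC, each spaced by NN and in either order, was found in windows of 3 of the 7 members (Hspd1, Hspe1 and Hsph1), in 0 of 15 ER chaperones with an entry and for 0.662% of all 27025 genes with a window. GAANNTTC was found for 6 of the 7 members, all but Dnajb1, for 0 of the 15 ER chaperones and for 9.04% of genes. TTCNNGAA was found for 3 members, for 1 ER chaperone (Dnajc10) and for 9.60% of genes. These counts are by gene, so stretches shared by Hspa1a and Hspa1b, or by Hspd1 and Hspe1, enter for both genes of a pair. A gene with several windows, such as Dnaja1, counts if any of them matches.

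For contrast, the ER stress element, CCAAT and CCACG with 9 bases between them on either strand, was found for 7 of the 15 ER chaperones, 0 of the 7 members and for 0.137% of genes. It is marked in capitals in front of Hspa5 (BiP, the ER HSP70), Hsp90b1 (Grp94, the ER HSP90) and Calr (calreticulin).
Hspa5, chr2:34772020-34772048, plus strand: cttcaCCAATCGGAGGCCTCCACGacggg
Hsp90b1, chr10:86705633-86705661, minus strand: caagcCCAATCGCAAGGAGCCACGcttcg
Calr, chr8:84847070-84847098, minus strand: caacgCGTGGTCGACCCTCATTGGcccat
A match describes letters and was not tested as a binding site.

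The WT library held 7814 cells and 51020804 unique molecular identifiers (UMIs, 1 per captured mRNA molecule), and the mutant library 11525 cells and 72652201 UMIs. The median cell had 5492 and 5633 UMIs, and 31 cell barcodes occurred in both libraries. H2-Aa was at 5410 CPM (the class's or library's UMIs of a gene per 1000000 of all its UMIs) in WT and 66.2 CPM in mutant cells. Cells were placed in classes by counting markers with at least 1 UMI, and 9 classes with at least 50 cells in each library were compared: conventional DC of type 2 (cDC2) that were ribosome-rich or ribosome-poor, Ccr2+ cDC2, type 1 (cDC1), mature Ccr7+ DC, proliferating cells, plasmacytoid DC (pDC), Ace+ monocytes and macrophages. The gate left 18.1% of WT and 15.5% of mutant cells unplaced. The ribosome-poor group, split from other cDC2 at a ribosomal protein share of 8% of UMIs, was led by genes such as Gm15261 with no cDC2 marker among its leading genes, so its name says only how it was gated. Its 12 cDC2 markers, which the gate itself used, summed to 1554 CPM in WT and 1674 CPM in mutant cells. In ribosome-rich cDC2 they summed to 1345 and 1299 CPM. The median ribosome-poor cell had 3143 UMIs in WT and 2372.5 in mutant cells, against 7853 and 6661 in ribosome-rich cDC2. Its median mitochondrial share was 2.22% and 3.07%, against 1.51% and 1.57%. Its median ribosomal share still differed, at 3.02% in WT and 4.02% in mutant cells. The part of these in the values of this class was not tested.

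These classes differed between libraries in ways that sit beside every value below. Ribosome-rich cDC2 made up 24.2% of WT and 42.4% of mutant cells, and mature Ccr7+ DC 19.8% and 9.10%. The median ribosomal protein share was 10.5% of UMIs in WT and 15.5% in mutant cells, and it was higher in mutant cells in all 9 classes. When all cells were clustered, some clusters within a class came almost wholly from 1 library. One cluster of mostly ribosome-rich cDC2 held 1 WT and 1039 mutant cells, one of mostly mature Ccr7+ DC 460 and 24, and one of mostly cDC1 306 and 20. Ratios within these classes therefore compare cells of partly different clusters.

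Across all cells, the heat shock genes differed little between the libraries while ER chaperones differed widely. Of the 10 members, 8 reached a mean of 10 CPM, and all 8 had more CPM in mutant cells, against 52.5% of the 8577 genes read at that floor. Their log2 ratios of mutant to WT lay between 0.12 and 0.39, with a median of 0.24, where the median of all genes was 0.02. A 1.5-fold difference was reached by 0 of the 8, against 3.33% of all genes higher and 6.76% lower. The 10 members summed to 1832 CPM in WT and 2101 CPM in mutant cells, a log2 ratio of 0.20. That ratio was 0.03 among cells with a ribosomal share of at least 8% and -0.07 after both libraries were weighted to the same ribosomal shares.

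Hspa8, the constitutive HSP70 (HSC70) that also uncoats clathrin vesicles and serves chaperone-mediated autophagy, lies at chr9:40800984-40810087. It stood at 532 CPM (526 to 539) in WT and 578 CPM (572 to 583) in mutant cells, a log2 ratio of 0.12 (0.10 to 0.14), and the intervals did not overlap. Weighted to the same ribosomal shares, that ratio was -0.17. Within classes, WT and mutant levels were 522 and 526 CPM in ribosome-rich cDC2, 459 and 463 CPM in mature Ccr7+ DC and 907 and 921 CPM in proliferating cells. Each of these pairs overlapped in its counting intervals. Ribosome-poor cDC2 were apart, at 154 CPM (143 to 165) in WT and 218 CPM (205 to 232) in mutant cells, a log2 ratio of 0.50 (0.37 to 0.64). In Ccr2+ cDC2, the ratio was below 0, at 686 and 644 CPM (log2 ratio -0.09, -0.18 to -0.00). Of 401 overlapping 100-base stretches at the 3′ end of the Hspa8 transcript, 79.3% also occur in transcripts of other annotated genes such as Gm15459, so its counts are less certain than those of other members.

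Levels differed between classes more than between libraries (the plot of levels by class). Proliferating cells had the highest WT levels of Hspa8, Hsp90aa1, Hsp90ab1, Hspd1, Dnaja1 and Hsph1, and ribosome-poor cDC2 the lowest of Hspa8, Hsp90ab1, Hspd1, Hspe1, Dnaja1 and Dnajb1. In the mutant library proliferating cells were highest for Hspa8, Hsp90aa1 and Hspd1, whereas cDC1 were highest for Hsp90ab1, Ccr2+ cDC2 for Dnaja1 and Ace+ monocytes for Hsph1. The WT intervals of Dnaja1 and Hsph1 in proliferating cells overlapped those in cDC1. In the mutant library, Dnaja1 in Ccr2+ cDC2, Hsph1 in Ace+ monocytes and Hspd1 in proliferating cells also overlapped cDC1, so these top classes were not told apart from it. For Hspa8 in WT cells the order ran from proliferating cells (907 CPM) through cDC1 (807), Ccr2+ cDC2 (686), macrophages (590), ribosome-rich cDC2 (522), pDC (519), mature Ccr7+ DC (459) and Ace+ monocytes (448 CPM) to ribosome-poor cDC2 (154 CPM). Of its 8 neighboring pairs, 2 had overlapping intervals. For Hsp90ab1 3 of 8 neighbors overlapped in WT cells, and for Hspe1 6 of 8. For Hsph1 and Dnajb1 all 8 overlapped, so neighbors in the order of Hsph1 and Dnajb1 were not told apart. Hsph1 in cDC1 (14.8 to 22.3 CPM) and in mature Ccr7+ DC (3.08 to 5.53 CPM) did not overlap. At the low end in WT cells, ribosome-poor cDC2 overlapped mature Ccr7+ DC for Dnaja1 and Hspd1, and cDC1 for Dnajb1. The lowest class was not told apart there. The highest class was between 2.15-fold (Dnaja1) and 6.81-fold (Hspe1) above the lowest in WT cells.

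**Figure D1:**
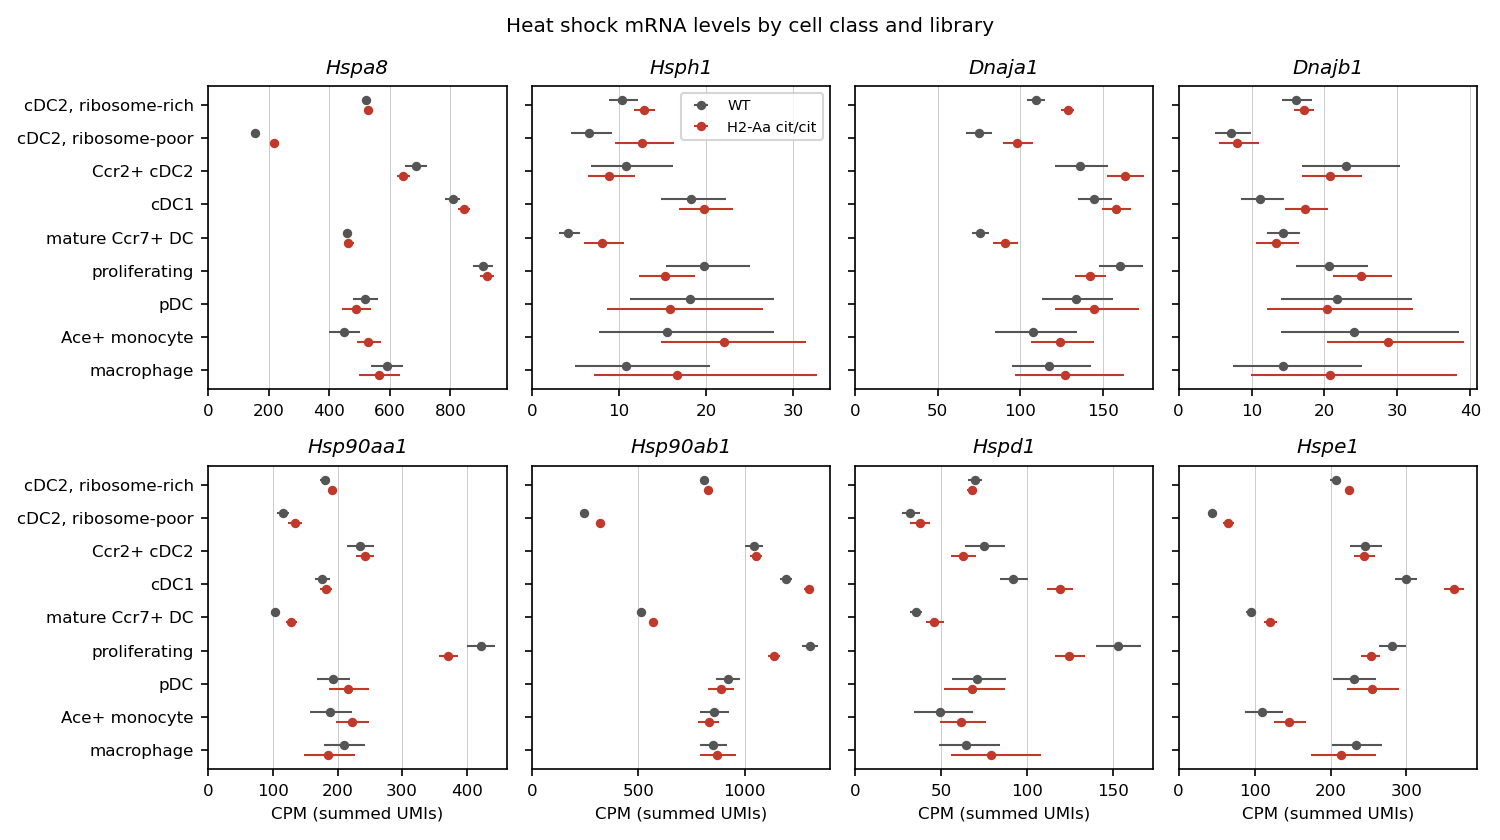
CPM of 8 members (horizontal axes, from 0) in 9 cell classes (vertical axis) in the WT (grey) and H2-Aa cit/cit (red) library, with exact 95% Poisson intervals for counting error. Levels differ more between classes than between libraries for Hspa8, from 154 CPM in ribosome-poor cDC2 to 907 CPM in proliferating WT cells.

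The inducible HSP70 genes were near 0 in both libraries. Hspa1a and Hspa1b are near-identical genes on chr17, at 34969190-34972156 and 34956436-34959238, that are strongly induced by heat in most cells. Hspa1a had 40 UMIs in 37 of the WT cells (0.474%) and 68 UMIs in 56 of the mutant cells (0.486%), with at most 2 and 4 UMIs in a cell. Hspa1b had 9 UMIs in 9 WT cells (0.115%) and 32 UMIs in 31 mutant cells (0.269%), and 6 cells had both genes. Per UMI of the library, the log2 ratio was 0.26 (-0.33 to 0.86) for Hspa1a and 1.32 (0.22 to 2.57) for Hspa1b, the second resting on 9 WT molecules. Both stayed under 10 CPM in every class, so no fold was read by class. The exact intervals of these shares overlapped for each gene between libraries. No class here is known to lack these mRNAs, so free RNA in the droplets was not gauged. Mature Ccr7+ DC held 18 of the WT and 15 of the mutant Hspa1a UMIs, at 1.56 and 2.32 CPM. Hspa1a also overlaps Gm20481 on the other strand. Reads of near-identical genes such as Hspa1a and Hspa1b can be split between them. At their 3′ ends, however, 0 of 401 overlapping stretches of either gene also occur in transcripts of another annotated gene. Whether reads from other parts of these transcripts were split was not tested.

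Hsph1, the HSP110 that exchanges nucleotide on HSP70, stood at 10.2 CPM (9.32 to 11.1) in WT and 13.3 CPM (12.5 to 14.2) in mutant cells, a log2 ratio of 0.39 (0.23 to 0.55). It was the largest ratio of the 8 members read. In ribosome-poor cDC2 it was 6.51 CPM from 32 UMIs and 12.6 CPM from 57 UMIs, and in mature Ccr7+ DC 4.17 CPM from 48 UMIs and 8.05 CPM from 52 UMIs. Both classes had a mean under 10 CPM and are given as values without a call. Their log2 ratios were 0.95 (0.30 to 1.63) and 0.95 (0.35 to 1.55), past 1.5-fold but left out of the counts by that floor. In macrophages the ratio passed 1.5-fold on 9 and 8 UMIs, with a log2 ratio of 0.63 whose interval ran from -0.95 to 2.17, and it was -0.19 when clusters took the place of gates.

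The J proteins were both higher over all cells, with more change of sign by class for Dnajb1. Dnaja1, which recruits HSP70 to misfolded and mitochondrial clients, stood at 106 CPM (103 to 109) in WT and 130 CPM (128 to 133) in mutant cells, a log2 ratio of 0.30 (0.25 to 0.35). Its intervals did not overlap, and its ratio was above 0 in 8 of 9 classes, the exception being proliferating cells at 160 and 142 CPM (-0.17, -0.33 to -0.02). Smu1 overlaps Dnaja1 on the other strand. Dnajb1, the main HSF1-induced J protein, stood at 14.6 and 17.4 CPM, a log2 ratio of 0.26 (0.13 to 0.39). In cDC1 it was 11.2 CPM (8.54 to 14.5) from 59 UMIs in WT and 17.4 CPM (14.6 to 20.5) from 143 UMIs in mutant cells, a log2 ratio of 0.63 (0.18 to 1.09). Dnajb1 had a ratio below 0 in Ccr2+ cDC2, mature Ccr7+ DC and pDC, each with an interval across 0. It was the only member past 1.5-fold in cDC1, and the ratio there was 0.29 after weighting to the same ribosomal shares.

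The cytosolic HSP90 genes differed by small amounts. Hsp90ab1, the constitutive HSP90 beta, stood at 758 CPM (750 to 765) in WT and 865 CPM (858 to 872) in mutant cells, a log2 ratio of 0.19 (0.17 to 0.21). Hsp90aa1, the inducible HSP90 alpha, stood at 172 CPM (168 to 176) and 200 CPM (197 to 204), a log2 ratio of 0.22 (0.18 to 0.26). Neither pair of intervals overlapped, but weighted to the same ribosomal shares the ratio of Hsp90ab1 turned to -0.11 and that of Hsp90aa1 was 0.09. In ribosome-rich cDC2, Hsp90ab1 was at 808 and 826 CPM (log2 ratio 0.03) and Hsp90aa1 at 180 and 192 CPM (0.09), while in cDC1 Hsp90ab1 was at 1193 and 1302 CPM (0.13, 0.08 to 0.17).

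The mitochondrial pair, Hspd1 (HSP60) and Hspe1 (HSP10), share a head-to-head position on chr1, at 55077835-55088243 and 55088132-55091307. Hspd1 stood at 63.7 CPM (61.5 to 65.9) in WT and 74.5 CPM (72.5 to 76.5) in mutant cells, a log2 ratio of 0.23 (0.16 to 0.29). Hspe1 stood at 175 CPM (171 to 178) and 221 CPM (217 to 224), a log2 ratio of 0.34 (0.30 to 0.38). Neither gene's intervals overlapped, but weighted to the same ribosomal shares the log2 ratio was 0.01 for Hspd1 and -0.04 for Hspe1, whose direction turned. In cDC1, Hspd1 was at 92.2 and 119 CPM (0.37, 0.21 to 0.53) and Hspe1 at 299 and 362 CPM (0.28, 0.19 to 0.37). In mature Ccr7+ DC they were at 35.3 and 46.2 CPM (0.39, 0.17 to 0.61) and 94.7 and 121 CPM (0.35, 0.22 to 0.49). For Hspe1, 34.4% of the 3′ end stretches also occur in another annotated gene.

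Proliferating cells went the other way. Of 8 members read there, 2 had a ratio above 1, where 47.6% of all genes did, and the median log2 ratio was -0.18. Hspd1 was at 153 CPM (140 to 167) in WT and 125 CPM (116 to 134) in mutant cells, a log2 ratio of -0.30 (-0.46 to -0.13). Hsp90aa1 was at 422 and 372 CPM (-0.19, -0.28 to -0.09), Hsp90ab1 at 1307 and 1137 CPM (-0.20, -0.25 to -0.15) and Hspe1 at 281 and 253 CPM (-0.16, -0.27 to -0.04). Under the 9 alternatives Hspd1, Hspe1 and Hsp90aa1 stayed below 0, whereas Hsp90ab1 was 0.04 when clusters took the place of gates and Dnaja1 0.00 when cells were weighted equally. The class was not of the same makeup in both libraries: the summed level of 7 cDC1 markers was 1066 CPM in WT and 572 CPM in mutant proliferating cells. The part of this in the result was not tested.

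Over the 9 classes, 68 pairs of a class and a member were read, and 47 had a ratio above 1. The counting interval lay above 0 in 23 pairs and below 0 in 6. The share of all genes with such intervals was not counted, so these counts are not read as a trait of the members. A 1.5-fold difference was reached by 2 pairs, Dnajb1 in cDC1 and Hsph1 in macrophages, both higher, and by 0 pairs lower. In pDC, Ace+ monocytes and macrophages, with 102 to 167 cells per library, the intervals of most members spanned 0 (the plot of ratios by class). Among these, Hspa8 (0.24, 0.05 to 0.44) and Hspe1 (0.40, 0.02 to 0.80) in Ace+ monocytes lay above 0. The Hspe1 ratio there was -0.04 with cells weighted equally and -0.21 with clusters in place of gates. Ace+ monocyte markers summed to 3320 CPM in WT and 1486 CPM in mutant cells of that class, and proliferation markers to 73.4 and 304 CPM, and their part in these values was not tested. Macrophage-gated cells also carried erythroid marker genes at 7702 CPM in WT and 187 CPM in mutant cells, and their part in the macrophage values was not tested.

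Counts of members are set against all genes read in the same class. In ribosome-poor cDC2, 6 of 6 members had a ratio above 1, against 56% of genes, and 0 passed 1.5-fold, against 3.87% higher and 2.66% lower. In ribosome-rich cDC2, 7 of 8 were above 1, against 47.3%, and 0 passed 1.5-fold, against 2.17% and 1.53%. These cDC2 groups had summed log2 ratios of 0.40 and 0.05.

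In Ccr2+ cDC2, 3 of 7 were above 1, against 48.3%, with 0 past 1.5-fold, against 3.58% higher and 3.03% lower. In cDC1, 8 of 8 were above 1, against 46.8%, and 1 passed 1.5-fold, against 9.03% higher and 8.18% lower. In mature Ccr7+ DC, 6 of 7 were above 1, against 58.3%, with 0 past 1.5-fold, against 6.11% and 4.06%. In the main values, members in cDC1 and mature Ccr7+ DC were thus mostly on the higher side, by small amounts. Of 9 alternatives in mature Ccr7+ DC, Hspa8 was below 0 in 7, Hsp90ab1 in 2 and Dnajb1 in all 9. The other members read there stayed above 0. In cDC1, Hspa8 and Hsph1 were below 0 in 3 of 9 and Hsp90aa1 in 2, and the other members read stayed above 0. The 7 cDC1 markers summed to 3614 CPM in WT and 2596 CPM in mutant cDC1, and their part in these values was not tested.

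Proliferating cells had 2 of 8 above 1 and 0 past 1.5-fold, against 3.22% of genes higher and 2.71% lower. In pDC, 3 of 8 were above 1, against 49.4%, with 0 past 1.5-fold, against 7.86% and 8.38%. In Ace+ monocytes 7 of 8 were above 1, against 50%, with 0 past 1.5-fold, against 13.8% and 13%. Macrophages had 5 of 8 above 1, against 51.1%, and 1 past 1.5-fold, against 14.4% and 14.3%.

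**Figure D2:**
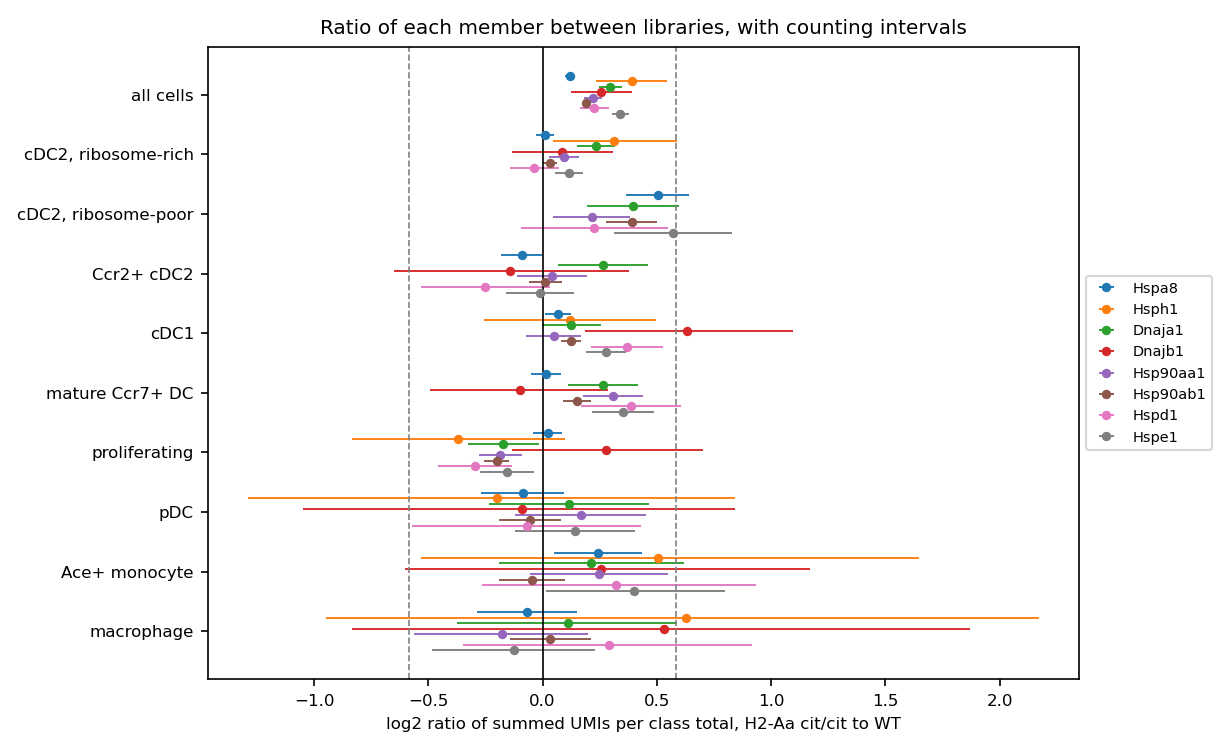
Log2 ratio of summed UMIs per class total, H2-Aa cit/cit to WT (horizontal axis), for each member with a mean of at least 10 CPM, over all cells and in 9 classes (vertical axis). Points are ratios, bars exact 95% intervals for counting error, and dashed lines a 1.5-fold difference. Most points lie between the dashed lines, above 0 in ribosome-poor cDC2 and mostly below 0 in proliferating cells.

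The ER counterparts showed a different size of difference. Hspa5, the ER HSP70, stood at 252 CPM (248 to 256) in WT and 1159 CPM (1151 to 1167) in mutant cells, a log2 ratio of 2.20, where its cytosolic relative Hspa8 had 0.12. Hsp90b1 stood at 199 and 732 CPM (1.88), where Hsp90ab1 had 0.19. Of 19 ER chaperones, 17 were at least 1.5-fold higher, against 3.33% of all genes. The list was drawn up with earlier results of these data known. The paper had already reported some of its genes, such as Calr and Hsp90b1, as higher in mutant cDC2. The count therefore describes the list and is not independent support. Their median log2 ratio was 1.33, with Creld2 (2.78), Pdia4 (2.44) and Manf (2.41) at the top. The calcium-binding chaperone Calr was at 256 and 614 CPM (1.26).

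ER chaperones had a higher median than the members in all 9 classes, by least in pDC. In cDC1, the 19 ER chaperones summed to 3675 CPM in WT and 17523 CPM in mutant cells. There 17 were past 1.5-fold, all higher, against 9.03% of all genes higher. Their median log2 ratio was 2.40, where the 8 members read had a median of 0.13. In ribosome-rich cDC2, 16 of 19 were past 1.5-fold, all higher, against 2.17% of all genes higher. Their median was 1.19, and the members had 0 of 8 past 1.5-fold and a median of 0.09. In pDC, 2 of 19 were past 1.5-fold, both higher, a share near the 7.86% of all genes higher there. Their median was 0.16, and the members' median was -0.06. These differences between lists are given as counts and medians.

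Other folding machinery of the cytosol also differed little over all cells, where 3.33% of all genes were 1.5-fold higher and 6.76% lower. Of 8 TRiC subunits, the chamber that folds actin and tubulin, 0 passed 1.5-fold and the median log2 ratio was 0.21, led by Cct7 at 63.3 and 84.4 CPM (0.41), Cct5 (0.34) and Cct3 (0.22). Of 20 HSP70 and HSP90 cofactors read, 0 passed, with a median of 0.12, and the largest ratios were those of Bag5 (0.47), Fkbp4 (0.41) and Bag3 (-0.37), an HSF1 target that links HSP70 to autophagy. In cDC1, 2 of 20 cofactors passed, a share near the 9.03% of all genes there, and Bag3 there was at 6.65 CPM from 35 UMIs in WT and 18.6 CPM from 153 UMIs in mutant cells (1.48, 0.94 to 2.06). Of 11 J proteins read from a list drawn up for the cytosol, 0 passed. Dnajc5 (-0.18), Dnajb14 (-0.17) and Dnajc7 (0.15) had the largest ratios in either direction. Where each of these proteins sits in the cell was not measured. Prefoldin, which hands chains to TRiC, had 0 of 6 past 1.5-fold, with Pfdn6 (0.41), Pfdn2 (0.26) and Pfdn5 (0.15) highest. The HSP70 and HSP110 relatives Hspa14 (0.15) and Hspa4 (0.01) also stayed within 1.5-fold. Only Hspb11 (0.10) was read of the 8 genes listed as small heat shock proteins, and it stayed within 1.5-fold too. Others, such as Hspb1 and Cryab, were under the floor, so these values do not describe that family.

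Mitochondrial folding genes had 1 of 14 past 1.5-fold over all cells, on the higher side, against 3.33% of all genes higher. Hspa9 (mortalin, the mitochondrial HSP70) stood at 41.6 CPM (39.9 to 43.4) in WT and 72.8 CPM (70.8 to 74.8) in mutant cells, a log2 ratio of 0.81, followed by the protease Clpp (0.47) and the iron-sulfur co-chaperone Hscb (0.45). In cDC1, Hspa9 was at 56.5 and 157 CPM (1.47, 1.29 to 1.66). There 4 of 14 of the list passed, all higher, against 9.03% of all genes higher and 8.18% lower. The same organelle's Hspd1 and Hspe1 had 0.37 and 0.28 there. Among heat shock factors, Hsf2 was at 21.2 and 11.2 CPM (-0.92), Hsf1 at 16.9 and 20.9 CPM (0.30) and the factor-binding Hsbp1 at 49.4 and 55.3 CPM (0.16). By class, the lowest ratio of any factor read was -0.85 in mature Ccr7+ DC (19.8% of WT and 9.10% of mutant cells). It was -0.56 in Ace+ monocytes, -0.20 in macrophages, -0.18 in proliferating cells and -0.15 in ribosome-poor cDC2. In the other classes, where only 2 of the 4 listed factors were read rather than 3, it lay between -0.06 (cDC1) and 0.09 (Ccr2+ cDC2). The factor with the lowest ratio can differ by class, so these values do not trace Hsf2.

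Immediate-early genes, which answer within minutes to many signals and to cell handling, were lower on balance in mutant cells. Of 17 read over all cells, 4 were at least 1.5-fold lower and 0 higher, against 6.76% of all genes lower and 3.33% higher. Their median log2 ratio was -0.20, and the 20 genes of the list summed to 2528 CPM in WT and 2023 CPM in mutant cells. By class, the median was below 0 everywhere except in mature Ccr7+ DC (0.01), and it was -0.04 in macrophages. Egr1 had the lowest ratio, at 64.4 and 30.6 CPM (-1.07), followed by Zfp36 (-0.81) and Dusp1 (-0.72). Their part in the heat shock values was not tested.

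**Figure D3:**
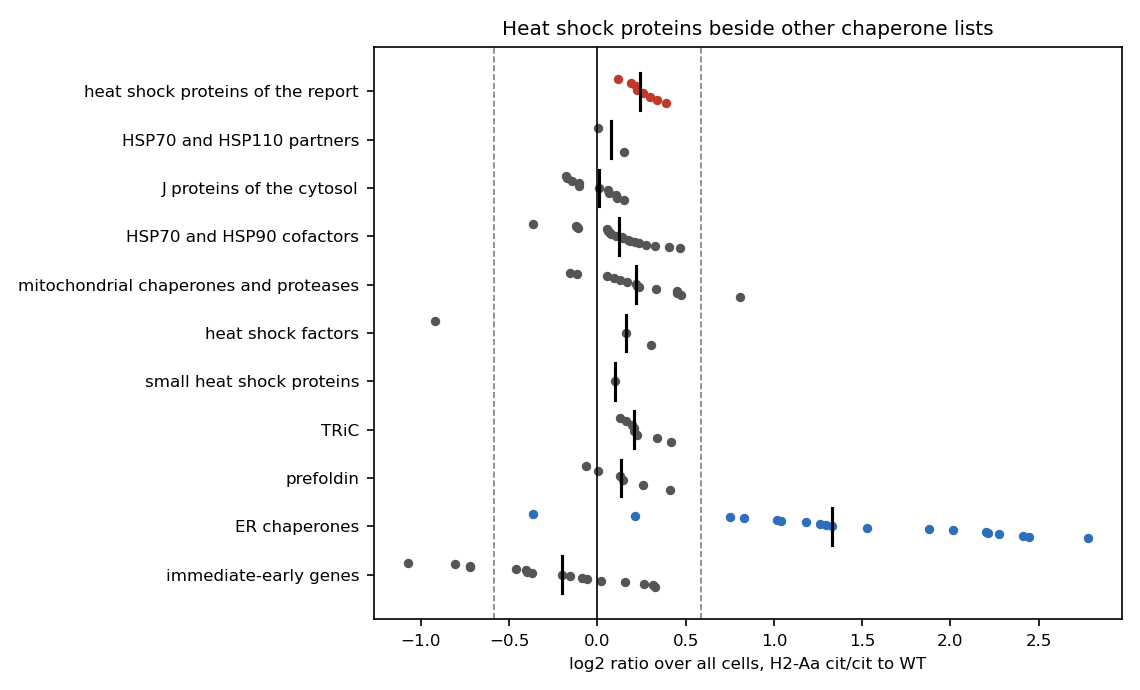
Log2 ratio over all cells, H2-Aa cit/cit to WT (horizontal axis), of each gene with a mean of at least 10 CPM in 11 lists (vertical axis). Points are genes, black bars list medians, and dashed lines a 1.5-fold difference. ER chaperones (blue, median 1.33) lie apart from the heat shock proteins (red, median 0.24).

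Levels of the members moved with the ribosomal protein share of a cell, and the part of that share in the differences between libraries was not tested. Within cDC2-gated cells, the 10 members summed to 598 CPM in WT and 775 CPM in mutant cells at a share of 0 to 4%, and to 2799 and 2585 CPM at 25% or more. Their level increased from each bin to the next in both libraries, 4.68-fold in WT and 3.34-fold in mutant cells from the lowest to the highest. The log2 ratio between libraries was 0.37 (0.29 to 0.46) in the lowest bin and 0.12 (0.01 to 0.23) in the next, and between -0.12 and -0.04 in the other 5. ER chaperones were higher in mutant cells in all 7 bins, with log2 ratios from 0.88 to 1.62. Ribosomal UMIs are part of each total, and without them in the total the summed log2 ratio over all cells was 0.26.

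**Figure D4:**
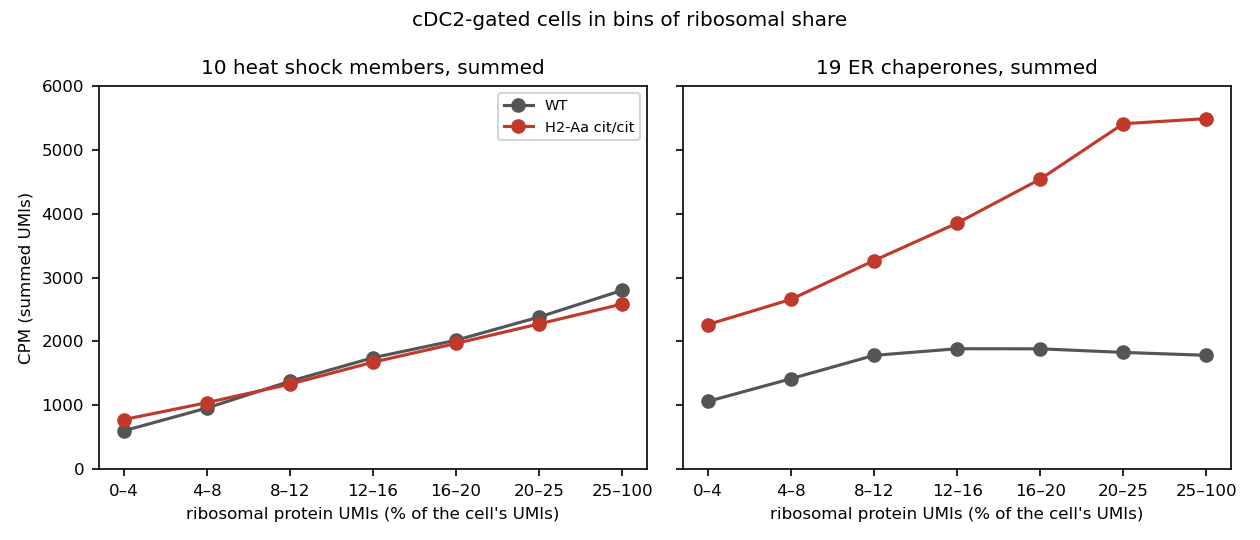
Summed CPM (vertical axis) of the 10 members (left) and 19 ER chaperones (right) in cDC2-gated cells, in 7 bins of ribosomal protein share (horizontal axis), for WT (grey) and H2-Aa cit/cit (red). The lines of the members run together from 598 and 775 CPM upward, and those of the ER chaperones part to 1782 and 5489 CPM in the last bin.

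Shares of cells with a UMI were compared at equal depth. After each cell was thinned to 1500 UMIs, leaving out 734 WT and 958 mutant cells with fewer, 52.0% of WT (50.8 to 53.2) and 59.1% of mutant cells (58.2 to 60.1) had Hsp90ab1, against 75.4% and 80.1% before thinning. Hspe1 was found in 18.6% (17.7 to 19.5) and 23.7% (22.9 to 24.5) of thinned cells, and Hspa8 in 42.5% (41.3 to 43.6) and 47.6% (46.7 to 48.6). In ribosome-rich cDC2 the shares lay closer, at 64.8% and 65.8% for Hsp90ab1 and 51.5% and 51.3% for Hspa8, and the intervals overlapped. In single thinned ribosome-rich cDC2, Pearson's r over cells ranged from -0.04 to 0.12 among pairs of members with a value. The highest was for Hspa8 and Hsp90ab1 in WT, over 1834 cells of 1 library. Mean counts there were 0.80 UMIs per cell for Hspa8, 1.17 for Hsp90ab1 and lower for the other members. Counts this sparse hold r near 0, so these values do not tell how closely the members are related.

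The genes most like the members across classes were not chaperones. The mean centered log2(CPM + 5) profile of the 10 members over 18 sums, 9 classes in each library, had its highest Pearson's r with Atp5g1 (0.980), Snu13 (0.980), Atp5o (0.979), Snrpf (0.976) and Mrpl51 (0.973) among 3806 genes of at least 50 CPM. Atp5g1 and Atp5o encode subunits of the mitochondrial ATP synthase, Snu13 and Snrpf proteins of small nuclear or nucleolar RNA particles, and Mrpl51 a mitochondrial ribosomal protein. The profile's r with the median ribosomal share of the 18 sums was 0.881. Hsp90ab1 (0.970) lay closest to the members' own mean, and Hspa1a (0.158) and Hspa1b (0.094) farthest. Points of 1 library share its depth and preparation, so these values describe likeness and carry no p.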

How the data were processed

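Raw UMI counts of each gene in each cell were deposited by the authors. The submitters' processing notes name Cell Ranger 5.0.1, mm10 and Seurat. No cells were removed here. A class's CPM is its summed UMIs of a gene over its summed UMIs of all genes. Ratios carry exact conditional binomial intervals, CPM exact Poisson and shares Clopper-Pearson intervals, at 95%. These cover counting error only. Genes under a mean of 10 CPM were not read.

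Classes needed 2 to 5 markers of a list. The members, lists and markers were chosen with earlier results of these data known. Gate thresholds and the 8% ribosomal limit were set after marker counts and ribosomal shares had been seen. Named are all members, at most 3 genes per list with the largest fold, Hspa5, Hsp90b1, Hspa9 and Calr, and the 5 most alike genes. Doublets were kept in the main values.

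Positions came from GENCODE vM21 and promoters from RefSeq (GRCm38.p6). Python 3.11.15, numpy 2.4.6, scipy 1.17.1, pandas 2.3.3, matplotlib 3.10.9 and scanpy 1.11.5 were used. Ratios were tested on simulated data. Alternatives were median-ratio scaling, equal weight per cell, a mitochondrial limit of 10%, doublet removal, stricter gates, clusters, no CPM minimum, a lower fold limit and no thinning, and, chosen after seeing the data, a ribosomal minimum of 8%, weighting to equal ribosomal shares and a total without ribosomal UMIs.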

Additional observations from a re-analysis of the deposited data

Results flagged for a closer look

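For 6 members the ratio of mutant (H2-Aa cit/cit) to WT had a counting interval above 0 in one class and below 0 in another, so the single library of each genotype moved in opposite directions. The difference between classes was not tested, and the share of all genes with such opposite intervals was not counted. Hspd1 had a log2 ratio of -0.30 in proliferating cells and 0.39 in mature Ccr7+ DC. Hsp90ab1 had -0.20 in proliferating cells, but 0.04 with clusters in place of gates, and 0.39 in ribosome-poor cDC2. Hsp90aa1 had -0.19 in proliferating cells and 0.31 in mature Ccr7+ DC. Dnaja1 had -0.17 in proliferating cells, but 0.00 with cells weighted equally, and 0.40 in ribosome-poor cDC2. Hspe1 had -0.16 in proliferating cells and 0.57 in ribosome-poor cDC2. Hspa8 had -0.0907 in Ccr2+ cDC2 and 0.50 in ribosome-poor cDC2, but the interval of the former (-0.18 to -0.00) ended next to 0 and its value was 0.03 with clusters in place of gates.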

How the results depend on the processing

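No paired analysis was possible because each genotype had 1 library. The summed log2 ratio of the 10 members over all cells, 0.198, was 0.180 with median-ratio scaling, 0.150 with cells weighted equally and 0.261 without ribosomal UMIs in the total. It was 0.0341 among cells with a ribosomal share of at least 8% and -0.0727 when weighted to equal ribosomal shares, where its direction turned. The count of 2 class and member pairs past 1.5-fold was 0 with cells weighted equally, 1 without the highest doublet scores, 4 with clusters in place of gates, 9 with no CPM minimum, 13 at a lower fold limit (a log2 ratio of 0.32) and 1 weighted to equal ribosomal shares. The share of all genes past each limit was not counted under these settings, so a change in these or the following counts is not interpreted. Genes of the other chaperone lists past 1.5-fold over all cells numbered 2, or 8 with no CPM minimum and 1 at a ribosomal share of at least 8%. The median over the 10 members of the difference in share of cells with a UMI was 2.07 percentage points, and 4.31 without thinning. ER chaperones past 1.5-fold numbered 16 or 17 throughout. Among 661 single values, Hsph1 in macrophages turned from past 1.5-fold to -0.19 with clusters, and 64 changed sign. A cluster taken as macrophages, of 103 WT and 11 mutant cells, had 28.6% of its gated cells in that class, and another had 95.3%. For clusters taken as proliferating cells these shares were 57.6% and 78.7%. Values from clusters therefore compare partly other cell types. Depth limits pDC, Ace+ monocytes and macrophages most.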
